A study of Danio rerio with 4 samples.

Results

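The keratin genes krt93 (ENSDARG00000044976), krt94 (ENSDARG00000044975), krt95 (ENSDARG00000014356) and krt97 (ENSDARG00000000212) were followed by their Ensembl identifiers through a table of 31952 zebrafish genes, in which they were 4 of 22 genes with a keratin symbol. All 4 were found, and all 4 had enough counts to enter the fit over all genes. They were chosen with the comparison of NRas+ and control libraries already known, so their levels are given as a description and carry no test.

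RNA was sequenced from nuclei pulled down from heads of larvae at 5 dpf, in 2 NRas+ and 2 control libraries. Larvae of both groups came from a cross of 2 transgenic lines. The ox128 line carries mpo:BirA-Citrine, in which a neutrophil promoter drives a biotin ligase, and also bactin:Avi-Cerulean-Rangap, in which a ubiquitous promoter drives the nuclear-envelope protein that is to be biotinylated. The line given in the labels as ox130 carries kita:LexPR-Cerulean, a drug-dependent activator, together with its target LexOP:mCherry-NRas and the lens marker PcrysB:ECFP, although the study's text gives that allele name to a line with a mitfa promoter in place of kita. NRas+ larvae were kept in 1 µM mifepristone from 24 hpf, which lets LexPR switch on the NRas oncogene in cells with an active kita promoter, and control larvae carried the same transgenes and had no drug. Drug and oncogene therefore cannot be told apart in these libraries. In larvae with the ligase and envelope transgenes alone, the study tested the drug by qPCR on selected genes. It reported little or no change, and no keratin is among the genes it lists. Heads of many larvae were pooled for each library, NRas+ larvae were picked for visible mCherry, and the study saw oncogene-expressing goblet cells in the trunk, which was cut away. In bulk RNA of this kind, fewer nuclei of a type and less RNA per nucleus cannot be told apart.

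Keratins are the proteins of epithelial intermediate filaments. A filament is built from pairs of 1 acidic type I and 1 basic type II chain, so that a cell needs genes of both types. The filaments are anchored at desmosomes through plakin and plakophilin proteins, and in skin the outer cells also crosslink proteins with transglutaminases. In zebrafish larvae the epidermis consists of an outer periderm and a basal layer, and the type II genes krt4, krt5 and krt8 and many type I genes are transcribed there. The 4 genes described here are type I keratins of fish.

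Total counts lay between 30619195 and 42365244 per library. Levels are given as raw counts and as CPM, counts brought to a common library size after scaling by TMM, a method that lines up the bulk of genes between libraries. The TMM factor of control 2 was 1.41, against 0.861 to 0.942 in the other libraries. The nuclei are labelled as neutrophil, but mpx was not found by name, and 12 genes of the neutrophil list together held 47.7 and 60.85 CPM in NRas+ libraries against 42.1 and 52.3 CPM in controls, with lyz, the lysozyme gene, between 3.0 and 12.6 CPM. Skeletal muscle genes made up 43.2% and 43.6% of all counts in NRas+ and 30.8% and 21.7% in control libraries.

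The members fell into a pair that was nearly absent from controls and a pair that controls already expressed. In the NRas+ libraries krt93 had 12953 and 9437 counts, whereas the controls had 0 and 2. In CPM this was 355 and 248 in NRas+, against 0 and 0.0366 in controls. Both NRas+ libraries were high and both controls were under 3 counts, taken here as the floor of detection. Scaled by library size and TMM factor, the summed counts gave a ratio of 12246 for NRas+ over control. The 95% interval was 3389.5 to 101121, and the ratio rests on 2 control reads. Here as elsewhere an interval or floor covers counting error only, since reads amplified from little RNA are not independent molecules.

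The gene krt95 showed the same contrast at fewer counts. It had 1108 and 1103 counts in NRas+ libraries, or 30.4 and 29.0 CPM, and 0 counts in both control libraries. Against a floor of 3 counts in control 1, the shallower control, which is 0.112 CPM, the NRas+ mean of 29.7 ± 0.986 CPM (SD, n = 2) was at least 266-fold higher. The NRas+ libraries differed from each other by a factor of only 1.05.

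By contrast, krt94 was read in all 4 libraries at similar levels. It had 4643 and 3766 counts in NRas+ libraries, against 2877 and 7728 in controls, or 127 and 99.0 CPM against 107 and 141 CPM. The groups overlapped, with control 2 the highest and NRas+ 2 the lowest. The means were 113 ± 20.0 CPM in NRas+ and 124 ± 24.3 CPM in control (SD, n = 2 each). The log2 fold change was -0.14 (SE 0.38), which is smaller than the spread between libraries of a group. The sign of this change turned when control 2 (0.10) or NRas+ 2 (0.07) was left out.

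The gene krt97 was present in controls and higher in NRas+. Its counts were 12300 and 5474 in NRas+ libraries, against 1069 and 1773 in controls, or 337 and 144 CPM against 39.8 and 32.5 CPM. Both NRas+ libraries lay above both controls, but they differed from each other by a factor of 2.34, more than the controls did (1.23). The means were 241 ± 137 CPM in NRas+ and 36.1 ± 5.18 CPM in control (SD, n = 2 each). The log2 fold change was 2.74 (SE 0.45), or 2.00 without NRas+ 1. The plot of raw counts shows the 4 genes side by side.

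**Figure D1:**
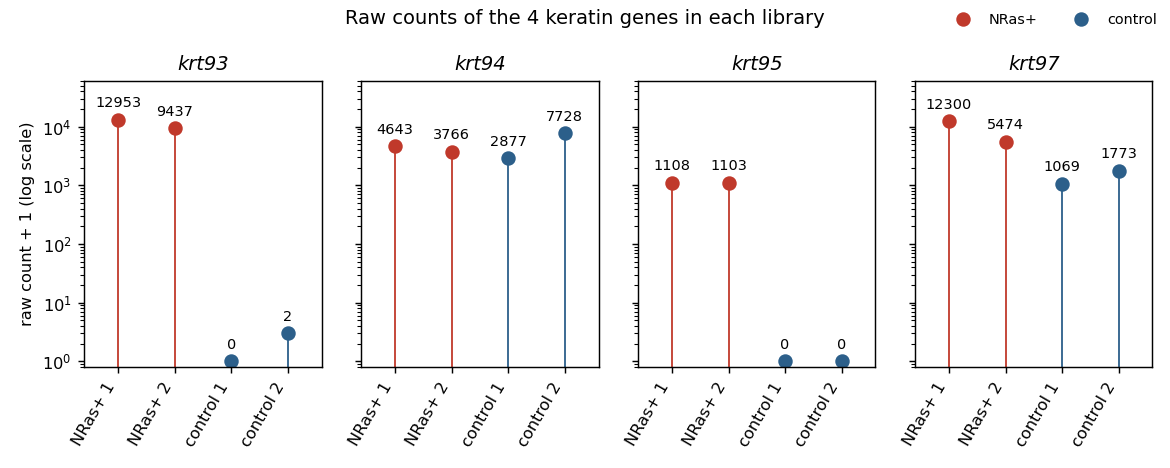
Raw counts plus 1 (vertical axis, log scale) of krt93, krt94, krt95 and krt97 in the NRas+ (red) and control (blue) libraries, with the count written at each point. krt93 and krt95 stand at 0 to 2 counts in controls and at 1103 to 12953 in NRas+, krt97 is high in NRas+ and lower in controls, and krt94 overlaps.

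Over the whole table, 0.169% of the 20099 genes tested passed an adjusted p of 0.05 (edgeR, quasi-likelihood, adjusted after Benjamini and Hochberg), 0.129% as higher and 0.0398% as lower in NRas+. Of the 4 members, 3 passed as higher (krt93, krt95 and krt97), but the comparison is the one they were chosen from, so nothing is read from that count. Without control 1, without NRas+ 1 or with library totals alone, 2 of the 4 passed. Of 26668 genes with any count, 3510 (13.2%) had at most 3 counts in each control, and 3 of 26668 (0.0112%) combined this with at least 100 counts in each NRas+ library: krt93, krt95 and prss60.1, a gene of a trypsin-like serine protease. In the reverse direction, with at most 3 counts in each NRas+ library and at least 100 in each control, there were 0 genes. Since krt93 and krt95 were chosen from this contrast, nothing is read from their place among the 3. The plot of mean levels over all genes places krt93 and krt95 apart from the other keratins at the left edge.

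**Figure D2:**
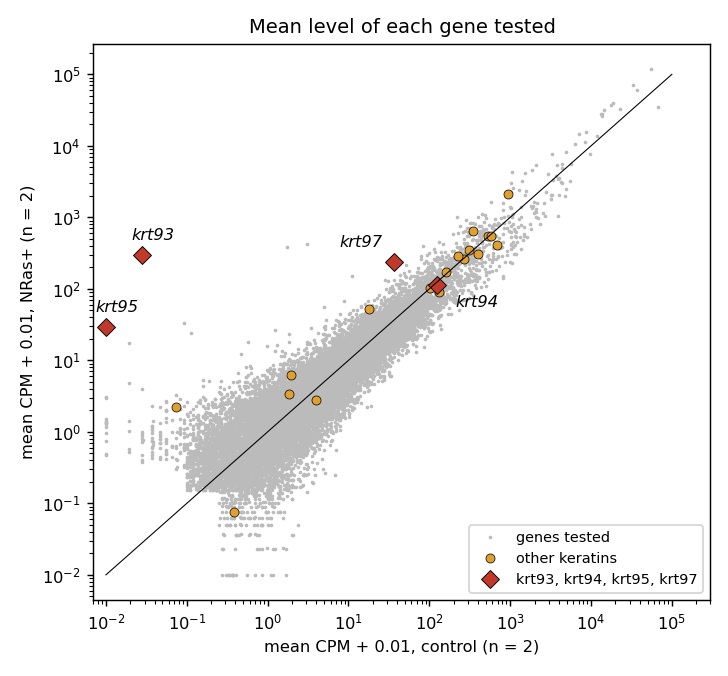
Mean CPM plus 0.01 of each gene tested in NRas+ (vertical axis) and control (horizontal axis) libraries, both log scales, with the line of equal levels. krt93 and krt95 (diamonds) lie far above the line at control levels near 0, krt97 lies above it by a log2 fold change of 2.74, and krt94 and most other keratins (orange) lie close to it.

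The members krt93 and krt94, whose values differed in this way, were genomic neighbours. In the RefSeq annotation of GRCz12tu, used for gene order only because the counts were made on another assembly, krt93 and krt94 are next to each other and are followed by krt98, krt15 and krt99. krt15 had 219 and 125 CPM in NRas+ libraries, against 209 and 109 CPM in controls, so that its groups overlapped as those of krt94 did. krt98 was near the floor, with 0 and 5 counts in NRas+ libraries and 11 and 19 in controls. krt99, at the far end, had 24 and 145 counts in NRas+ libraries, against 0 and 7 in controls. Its log2 fold change of 4.67 (SE 1.65) did not pass in edgeR's quasi-likelihood test (adjusted p = 0.268, and 0.0484 to 0.652 over the alternatives, the lowest with DESeq2).

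Taken as a pair, krt93 and krt94 held 17596 and 13203 counts in NRas+ libraries, against 2877 and 7730 in controls. Of these, krt93 made up 73.6% and 71.5% in NRas+ libraries and 0% and 0.0259% in controls. The summed level of the pair was 482 and 347 CPM in NRas+ and 107 and 142 CPM in controls. krt94 alone had 4643 and 3766 counts in NRas+ libraries, against 2877 and 7728 in controls. Whether the counting could tell near-identical stretches of these paralogs apart was not tested. No transcript lengths were at hand, so shares and rankings by count do not measure relative transcript numbers between genes.

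The other members stood elsewhere. In the same annotation krt97 lies between krt222 and krt96, both named as keratins. KRT222 had 8.80 and 3.47 CPM in NRas+ libraries, against 2.38 and 1.45 CPM in controls, a log2 fold change of 1.75 (adjusted p = 0.401 from edgeR). krt96, listed in the name table as si:rp71-1n18.1 and so outside the 22 keratin symbols, had 10.3 and 12.4 CPM in NRas+ libraries, against 6.36 and 3.37 CPM in controls, a log2 fold change of 1.28 (adjusted p = 0.387 from edgeR). Both neighbours, like krt97 itself, had both NRas+ libraries above both controls, as did 20.5% of all genes tested. None of the 3 genes on either side of krt95 has a keratin symbol, and 4 of these 6 could not be matched to the count table. Its nearest matched neighbour si:ch211-156l18.7 had 93 and 0 counts in NRas+ and 26 and 0 in controls, all of them in library 1 of each group. The aminopeptidase gene NPEPPS, further away, had 53.4 and 63.4 CPM in NRas+ and 45.3 and 58.4 CPM in controls.

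The sum of all keratins overlapped between groups, and the shares of the 4 members in it are given as a description. All 22 keratin genes together held 329859 and 155821 counts in NRas+ libraries, against 175495 and 177423 in controls, which is 9046 and 4096 CPM against 6531 and 3248 CPM. The share of keratin counts that came from krt93 was 3.93% (95% exact binomial interval 3.86 to 3.99) and 6.06% (5.94 to 6.18) in the NRas+ libraries. In controls it was 0.00113% in control 2, and 0 of 175495 in control 1, where the same exact interval reached up to 0.0021%. The share from krt95 was 0.336% and 0.708% in NRas+, and 0 in both controls, where the interval reached up to 0.0021% and 0.00208%. krt97 took 3.73% and 3.51% in NRas+ libraries and 0.609% and 0.999% in controls. krt94 took 1.41% and 2.42% in NRas+ libraries and 1.64% and 4.36% in controls. Together the 4 genes made up 9.40% and 12.7% of keratin counts in NRas+ libraries, against 2.25% and 5.36% in controls. They were chosen with this comparison known, so nothing is read from the difference in shares.

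The other 18 keratin genes did not move as a group. In edgeR's quasi-likelihood test 0 of 18 passed over all genes tested, 3 were higher and 0 lower at an unadjusted p under 0.05 (5.16% and 6.11% of all genes), and DESeq2 called 2, krt99 and krt1-19d. Their median log2 fold change was 0.08, beside -0.04 over all genes, with 11 above and 7 below 0, where 47.9% of all genes lay above 0. With library totals in place of TMM their median was -0.11, beside -0.40 over all genes, and with 1 library left out it ran from -0.57 (without NRas+ 1) to 0.83 (without control 1). Both NRas+ libraries were above both controls in 3 of them and below in 4, beside 20.5% and 21.8% of all genes. The third gene at an unadjusted p under 0.05, beside krt99 and KRT222, was krt1-19d, with 61.0 and 42.3 CPM in NRas+ libraries, against 20.8 and 15.2 CPM in controls, a log2 fold change of 1.53 (SE 0.40, adjusted p = 0.119 from edgeR, and 0.0402 with DESeq2, within a range of 0.0402 to 1 over the alternatives).

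The type II genes, which make the chains that type I keratins pair with, are krt4, krt5 and krt8. krt4 had 3123 and 1063 CPM in NRas+ libraries, against 1460 and 421 CPM in controls, so that the groups overlapped and the log2 fold change of 1.15 (SE 0.66) was not called (adjusted p = 0.540 from edgeR). krt5 had 966 and 309.9 CPM in NRas+ libraries, against 486 and 201 CPM in controls, also overlapping (log2 fold change 0.90, adjusted p = 0.572 from edgeR). For krt4 and krt5 library 1 was the higher in both groups, and each NRas+ library lay above the same-numbered control. The numbers are not known to pair the libraries. With replicate number in the edgeR model, the log2 fold changes were 1.22 (adjusted p = 0.327) and 0.81 (adjusted p = 0.386). krt8, the partner of krt18 in simple epithelia, had 431 and 395 CPM in NRas+ libraries, against 745 and 642 CPM in controls, without overlap (log2 fold change -0.75, adjusted p = 0.558 from edgeR). No type II gene named here had a log2 fold change as large as those of krt93, krt95 or krt97 in the fit over all libraries. Those members were chosen with this comparison known, so nothing is read from the ranking. The plot of the keratin family shows the levels.

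**Figure D3:**
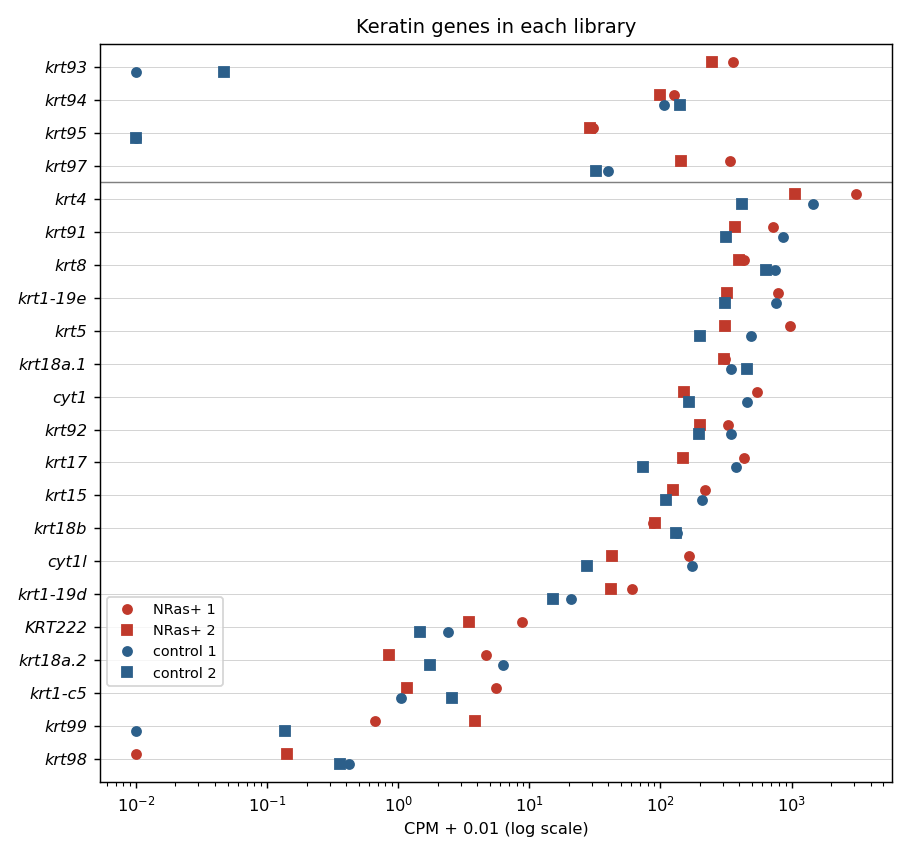
CPM plus 0.01 (horizontal axis, log scale) of each keratin gene in NRas+ (red) and control (blue) libraries, circles for replicate 1 and squares for replicate 2, with the 4 genes described above the grey line. krt93 and krt95 have both controls at the left edge, and most genes below the line have overlapping groups.

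Of the 5 keratins with the highest mean level, the remaining ones were type I genes. krt91 had 723 and 371 CPM in NRas+ libraries, against 856 and 317 CPM in controls. krt1-19e, a gene of basal epidermal cells, had 790.1 and 320.5 CPM in NRas+ libraries, against 767 and 308 CPM in controls. In both, the ranges of the 2 groups overlapped, and the spread within a group was far wider than the difference between the means.

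The spread between libraries of a group varied among keratins. Between NRas+ 1 and NRas+ 2 the CPM of krt4, krt5, cyt1 and cyt1l, all abundant in larval skin, differed by factors of 2.94, 3.12, 3.59 and 3.85, and between control 1 and control 2 by 3.46, 2.42, 2.73 and 6.28. In krt93 the factor between the NRas+ libraries was 1.43, in krt94 1.29, in krt95 1.05 and in krt97 2.34. Other keratins filled the range, with krt8 at 1.09, krt18a.1 at 1.01 and krt18b at 0.98 at its low end and krt1-19d at 1.44, krt92 at 1.62, krt15 at 1.75, krt91 at 1.95 and krt1-19e at 2.47 above krt93. Between the controls krt97 differed by 1.23 and krt94 by 0.757. These factors compare 1 library with 1 other and were not tested. They are shown in the plot of ratios between libraries of a group.

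**Figure D4:**
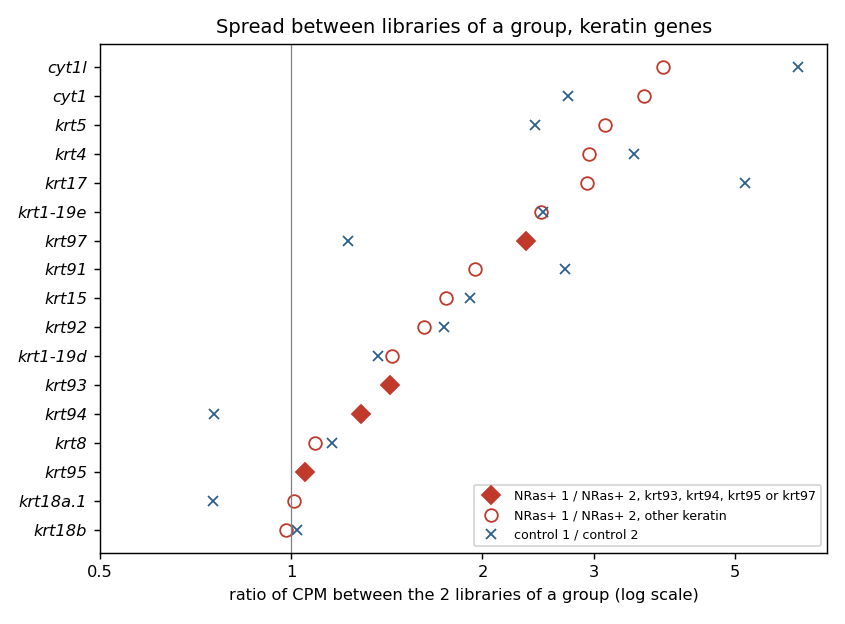
Ratio of CPM between the 2 libraries of a group (horizontal axis, log scale) for the 17 keratin genes with a mean of more than 20 CPM in NRas+, as NRas+ 1 over NRas+ 2 (red, filled diamonds for the 4 genes described) and control 1 over control 2 (blue crosses, none for krt93 and krt95). krt95, krt94 and krt93 stand at 1.05, 1.29 and 1.43, and krt4, krt5, cyt1 and cyt1l at 2.94 to 3.85.

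Over all genes tested, the gene nearest to krt93 in log2 CPM over the 4 libraries was krt95, at a Euclidean distance of 4.77. It was followed by serpinb1l4 (5.21), an inhibitor of serine proteases, prss60.1 (5.80), ENSDARG00000102692 (6.29), which has no symbol, and PKP1 (7.03), a plakophilin of desmosomes. prss60.1 had 717 and 584 counts in NRas+ libraries, against 0 and 1 in controls. ENSDARG00000102692 had 14369 and 14290 counts in NRas+ libraries, against 85 and 15 in controls. The members krt97 and krt94 ranked far behind, at distances of 12.9 and 15.5. Since likeness was measured on the same contrast, it is given as a description over 4 libraries.

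Low counts in both controls did not by themselves mark this pattern. Among genes with at most 3 counts in each control, those with the highest mean CPM in NRas+ after krt93 and krt95 were prss60.1, cryba1b, CRYGN, ENSDARG00000076693 and crygm2d2. Of these, cryba1b, CRYGN and crygm2d2 encode crystallins of the eye lens. cryba1b had 1 count in NRas+ 1 and 1179 in NRas+ 2, and the other 3 after prss60.1 had 0 in NRas+ 1 and 845 to 907 in NRas+ 2. Their counts came from 1 library, whereas those of krt93, krt95 and prss60.1 came from both NRas+ libraries. Since krt93 and krt95 were chosen from this contrast, nothing is read from that difference.

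Genes whose products anchor or crosslink keratin filaments were taken from 3 lists, of which 40 genes could be tested. In edgeR's test 2 of these genes rose past the threshold and 0 fell, beside 0.129% and 0.0398% of all genes. The 3 lists were chosen with earlier results of these data known, so nothing is read from how many of their genes passed or moved. Among 14 desmosome and plakin genes tested, PKP1 passed, with 23.8 and 12.7 CPM in NRas+ libraries, against 0.112 and 1.03 CPM in controls (log2 fold change 4.70, SE 0.73, adjusted p = 0.00573 from edgeR). The call was lost with library totals (0.0573), with the replicate block (0.131), without control 1 (0.117) and without NRas+ 1 (0.212), within a range of 9.49e-08 to 0.212 over the alternatives. A desmoplakin gene, DSP (ENSDARG00000076673), named after its values were seen, had 46.2 and 27.4 CPM in NRas+ libraries, against 7.63 and 13.4 CPM in controls (log2 fold change 1.78, adjusted p = 0.102 from edgeR). It passed with DESeq2 (0.0218) and without control 2 (0.0434), within a range of 0.0218 to 1 over the alternatives. The other DSP entry, ENSDARG00000022309, had 30.4 and 23.8 CPM in NRas+ libraries, against 13.8 and 21.2 CPM in controls. Its log2 fold change was 0.61 (adjusted p = 0.622 from edgeR). The median of the list was 0.63, beside -0.04 over all genes. Its summed level went the other way, with 842 and 646 CPM in NRas+ libraries, against 1143 and 936 CPM in controls. Most of that sum came from 2 plectin genes, pleca, given below, and plecb. The gene plecb had 260 and 202 CPM in NRas+ libraries, against 371 and 314 CPM in controls. The direction of the sum is therefore that of plectin. Both NRas+ libraries were above both controls in 8 of the 14 genes and below in 3, beside 20.5% and 21.8% of all genes. At an unadjusted p under 0.05 in edgeR, 5 of the 14 genes were higher and 1 lower, beside 5.16% and 6.11% of all genes. The plectin gene pleca, also named after its values were seen, was the 1 member of the list lower at an unadjusted p under 0.05, with 287 and 233 CPM in NRas+ libraries, against 625 and 461 CPM in controls (log2 fold change -1.06, adjusted p = 0.343 from edgeR).

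The cornified envelope is in mammals the crosslinked shell of outer skin cells. Of 15 genes of this list, 1 passed in the same edgeR test, 12 were above 0, and the median log2 fold change was 1.81. Over all genes 0.129% were called higher, 47.9% lay above 0 and the median was -0.04. At an unadjusted p under 0.05, 8 of the 15 were higher and 0 lower, beside 5.16% and 6.11% of all genes. The gene that passed was tgm1l3, a transglutaminase, with 471 and 385 CPM in NRas+ libraries, against 5.1 and 0.970 CPM in controls. Its log2 fold change was 7.34 (SE 0.64, adjusted p = 3.12e-06 from edgeR, and at most 0.00426 over the alternatives). Another transglutaminase gene, tgm5l, named after its values were seen, had 212 and 82 counts in NRas+ libraries, against 0 and 2 in controls, with both controls under the floor (fitted log2 fold change 7.16, SE 1.89, adjusted p = 0.12 from edgeR and 0.000226 with DESeq2, within a range of 0.000226 to 0.834).

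Transcription factors of keratinocytes gave no call. In edgeR's quasi-likelihood test 0 of 11 passed, and DESeq2 called 0. At an unadjusted p under 0.05 in edgeR, 0 were higher and 1 lower, beside 5.16% and 6.11% of all genes. The lower one, KLF4, had 0 and 1.84 CPM in NRas+ libraries, against 5.95 and 4.14 CPM in controls (log2 fold change -2.39, adjusted p = 0.350 from edgeR). ovol1a had 1.59 and 1.29 CPM in NRas+ libraries, against 0 and 0.458 CPM in controls (log2 fold change 2.25, adjusted p = 0.531 from edgeR). The basal epidermal factor TP63, which the epidermis list also holds, had 16.8 and 5.65 CPM in NRas+ libraries, against 11.2 and 8.88 CPM in controls, so that its groups overlapped.

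Markers of epidermis other than keratins summed to a higher level in each NRas+ library than in either control, but 1 of 15 genes passed. Of the genes below, cldne, AGR2 and SPDEF were named after their values were seen. The 15 genes of this list summed to 346 and 273 CPM in NRas+ libraries, against 150.0 and 175 CPM in controls, and 13 of 15 had a log2 fold change above 0, with a median of 1.22, beside 47.9% above 0, 0.129% called higher and a median of -0.04 over all genes. As a share of all counts, without TMM, the list held 0.0297% and 0.0257% in NRas+ libraries, against 0.0132% and 0.0246% in controls, so that NRas+ 2 and control 2 were close. With library totals in place of TMM, 0 of 15 passed in edgeR's test and the median was 0.84. None of the 15 genes was at 0 in all libraries. At an unadjusted p under 0.05 in edgeR, 8 of the 15 were higher and 0 lower, beside 5.16% and 6.11% of all genes. The list shares PPL and evpla with the desmosome and plakin list, anxa1c with the cornified envelope list and TP63 with the transcription factor list. The epidermis list too was chosen with earlier results of these data known, so nothing is read from how many of its genes passed or moved. cldne, a claudin of the periderm, was the 1 gene of the list that passed, with 29.1 and 25.1 CPM in NRas+ libraries, against 5.69 and 4.58 CPM in controls (log2 fold change 2.42, SE 0.47, adjusted p = 0.0343 from edgeR), and its call was lost in 6 of 11 alternatives, with an adjusted p of 0.000292 to 0.574 over all of them. A list of mucous cells summed to 18.4 and 21.7 CPM in NRas+ and 7.78 and 7.38 CPM in controls, with AGR2 at 16.6 and 13.2 CPM against 7.70 and 5.16 CPM, and SPDEF at no more than 0.0526 CPM in any library. The part of these cells in the levels of krt93, krt95 and krt97 was not tested. The plot of fold changes by list sets these groups side by side.

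**Figure D5:**
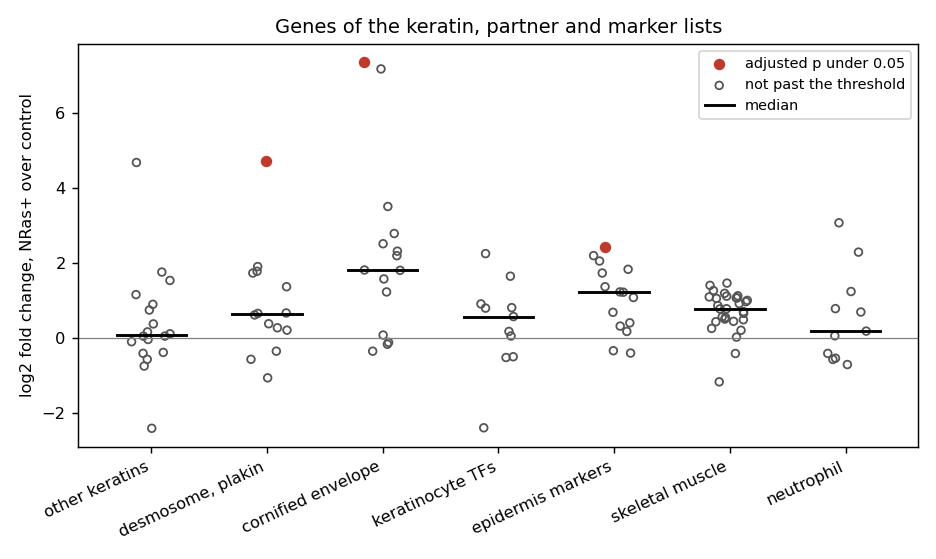
Log2 fold change, NRas+ over control (vertical axis), of each tested gene of the keratins other than the 4 described and of 6 lists, filled red where the adjusted p was under 0.05, with the median as a bar. Medians run from 0.08 for the other keratins to 1.81 for the cornified envelope, and the filled points are PKP1, tgm1l3 and cldne.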

How the data were processed

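Reads were mapped by the authors with STAR 2.4.2a to danRer10 and counted per Ensembl gene with featureCounts. The deposited values are raw counts, not normalized, for 2 NRas+ and 2 control libraries, with 30619195 to 42365244 counts each. The methods name standard counting parameters, which ignore strand, whereas the labels name a reverse strand, and the setting used was not settled. Counts of paralogs and overlapping genes are therefore uncertain. Nothing in the sources used here says which library came from which clutch, so p-values measure the spread between these libraries. Libraries of a group were not copies of each other, since the chi-square per gene was 60.2 in NRas+ and 187.5 in control.

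Symbols came from a name table that paired 81.8% of genes. Where a listed zebrafish symbol was not found, all genes under the human-style symbol were taken. After filterByExpr and TMM, edgeR 4.0.16 in R 4.3.3 fitted its quasi-likelihood model to 20099 genes, and p-values were adjusted after Benjamini and Hochberg. Each SE is the absolute log2 fold change divided by the square root of the F value of the quasi-likelihood test, so it is approximate. Distances were taken on log2 CPM (prior count 2). The script was first tested on simulated data. The members and lists were chosen with earlier results of these data known. The genes named are the members, the 5 keratins with the highest mean, krt4, krt5 and krt8, keratins with an unadjusted p under 0.05, called genes of the partner lists or otherwise the 2 with the smallest p, the 5 nearest to krt93, the 5 highest in NRas+ among genes with at most 3 counts in each control, and 3 neighbours on each side. All other genes named were picked after their values were seen. Alternatives were DESeq2 1.42.0, RLE factors, library totals, TMM without muscle genes, a minimum of 10 counts in each library or no filter, a replicate block, and leaving out each library. No sequences are shown, since none came with the files used here.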

Additional observations from a re-analysis of the deposited data

How the results depend on the processing

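The numbers of genes higher and lower over all genes, 26 and 8, were 233 and 146 with DESeq2, 8 and 14 with library totals alone, 88 and 64 with at least 10 counts in every library, and 7 and 0 with the replicate block, and 2 genes were lower with no filter. With 1 library left out they ranged from 6 to 88 higher and 0 to 263 lower. Library totals alone moved the median log2 fold change of all genes to -0.40, from -0.04. The calls among other keratins were 2 with DESeq2 and 0 elsewhere. The calls among partner genes, 2, were 5 with DESeq2, 1 with library totals, 1 with the replicate block and 1 to 4 with 1 library left out. The share of calls that were higher was 76.5%, but 61.5% with DESeq2, 36.4% with library totals, 57.9% with at least 10 counts, 90.5% with no filter, 100% with the replicate block and 25.1% without control 2. The cause was not tested.

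The fitted log2 fold change of krt93, 13.41, ranged from 12.91 to 16.32 with 1 library left out. That of krt95, 13.18, was 12.62 with DESeq2, 12.99 with library totals and 12.98 to 13.32 with 1 library left out. Both depend on the prior count and are no bounds. That of krt97, 2.74, ranged from 2.00 to 3.26 with 1 library left out. Neither krt93 nor krt95 could be tested with at least 10 counts in every library. The mean of krt95 in NRas+ was 26.7 CPM with library totals. With library totals the sign turned in krt15 (-0.14), krt1-19e (-0.17) and cyt1 (-0.054). With 1 library left out the values had both signs in krt15 (-0.35 to 0.66), krt1-19e (-0.74 to 0.86), cyt1 (-1.03 to 1.07), krt91 (-0.66 to 0.80) and krt5 (-0.14 to 1.68).

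With the replicate block, 2 of the 4 members passed, and the log2 fold changes were 13.32 for krt93, -0.13 for krt94, 13.17 for krt95 and 2.61 for krt97. As a check of the pairing, deviations of same-numbered libraries correlated with r = 0.147 over 20099 genes, and the numbers are not known to pair the libraries. That r covers all genes. Several keratins had like ratios of library 1 over library 2 in NRas+ and control, such as krt1-19e (2.47 and 2.49), krt15 (1.75 and 1.91) and krt92 (1.62 and 1.74). In others the ratios pointed opposite ways, such as krt94 (1.29 and 0.757) and krt1-c5 (4.77 and 0.404). The part of library number in the sign changes above was not tested.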
